A study of Sus scrofa with 226 samples.

Results

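Solute carriers are membrane proteins that move ions, amino acids and neurotransmitters across cell and organelle membranes. The genes described here are those of 10 families with roles in ion balance and amino acid transport, taken from the gene table of single pig sensory neurons by their symbol (SLC1A, SLC4A, SLC6A, SLC7A, SLC8A, SLC9A, SLC12A, SLC17A, SLC24A and SLC38A). Of 30420 genes in the table, 95 carried such a symbol. Of these, SLC4A1AP and SLC7A6OS bear the prefix of a neighbouring or interacting carrier gene and encode no carrier, which left 93 carriers. A level of at least 1 CPM (counts scaled to a common library total) in at least 10% of cells was reached by 74 of the 95 genes, 72 of them carriers, and these are described below.

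The study recorded single neurons of the dorsal root ganglion, where the cell bodies of sensory nerves lie, with a patch pipette and then collected each for Smart-Seq2, which amplifies full-length cDNA. All neurons came from wild-type pigs, 10 animals aged 11, 12, 14, 15, 17, 18 or 20 weeks, and were taken after 1 day (54.9% of neurons, 10 animals), 2 days (34.5%, 9 animals) or 3 days (10.6%, 3 animals) in culture. Total counts per neuron ran from 109726 to 5506278 with a median of 740524. No treatment or disease group was part of the design, so the comparisons below are between kinds of neuron, days in culture and recorded properties within animals.

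Neurons were set apart by 2 genes. OSMR encodes a subunit of receptors for oncostatin M and interleukin-31 and marks a kind of C-fibre neuron known for itch. ADCYAP1 encodes the peptide PACAP and marks peptidergic C-fibre neurons, many of them nociceptors. OSMR-high neurons had at least 50 CPM of OSMR and under 150 CPM of ADCYAP1 (59 neurons or 26.1%, 10 animals), ADCYAP1-high neurons had at least 150 CPM of ADCYAP1 and under 50 CPM of OSMR (60.2% of all neurons, 10 animals), and 24 neurons of 7 animals were low in both. A further 7 neurons over both cuts were left out. Within 2-fold of a cut lay 6 of the 59 OSMR-high neurons, 21 ADCYAP1-high neurons and 6 of the 24 low in both. The same held for 6 of the 7 neurons left out. All 8 pan-neuronal markers on the list used were detected in each class, with a median summed level of 11276 CPM in OSMR-high, 10751 CPM in ADCYAP1-high and 10636 CPM in low-in-both sums, although 1 of the low-in-both sums was down at 2459 CPM. Median totals per neuron were 810235, 733157 and 658368 in the same order.

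As background, sensory neurons hold chloride above its passive level through the sodium-potassium-chloride importer SLC12A2, while the potassium-chloride exporters of the same family work in the other direction. Bicarbonate carriers (SLC4A) and sodium-proton exchangers (SLC9A) set the pH of the cytosol and of organelles, and sodium-calcium exchangers (SLC8A, SLC24A) remove calcium after firing. Vesicular glutamate carriers (SLC17A6 to SLC17A8) load the transmitter that sensory neurons release in the spinal cord, and the SLC1A, SLC6A, SLC7A and SLC38A families take up glutamate, other transmitters and amino acids.

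Most of these genes were found in a middle share of the neurons. At CPM of at least 1, 33 of the 95 genes were found in at least 50% of neurons and 6 in at least 90%. Among these were SLC7A11, the cystine-glutamate exchanger, in 99.1%, SLC38A9, a lysosomal amino acid sensor, in 96%, SLC38A2, a glutamine and neutral amino acid importer, in 95.6%, SLC17A6, the main vesicular glutamate carrier of sensory neurons, in 92%, and SLC4A1AP, one of the 2 non-carriers, in 90.3%. By family, the described members were 8 of 9 for SLC12A, 11 of 11 for SLC4A, 3 of 3 for SLC8A, 4 of 5 for SLC24A, 8 of 9 for SLC9A, 6 of 9 for SLC17A, 6 of 7 for SLC1A, 8 of 18 for SLC6A, 11 of 13 for SLC7A and 9 of 11 for SLC38A. The SLC6A family, which holds the carriers for monoamines, glycine and GABA, thus had the most members below the 10% line. The 21 genes under 10% of neurons included the serotonin carrier SLC6A4 (7.08%), the noradrenaline carrier SLC6A2 (3.54%) and the dopamine carrier SLC6A3 (0.442%), and 2 genes, SLC6A18 and SLC6A19, reached 1 CPM in no neuron. Just inside the line were SLC1A6 and SLC9A3 at 10.2% each, and just outside were SLC17A4 at 8.85% and SLC6A5 at 7.96%.

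Some averages rest on single cells. One neuron gave 97.4% of the summed CPM of SLC12A8, which was under the 10% line, and 48% of that of SLC12A1. Single neurons also gave 46% for SLC12A5, 44.1% for SLC24A5 and 37.6% for SLC1A2.

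**Figure D1:**
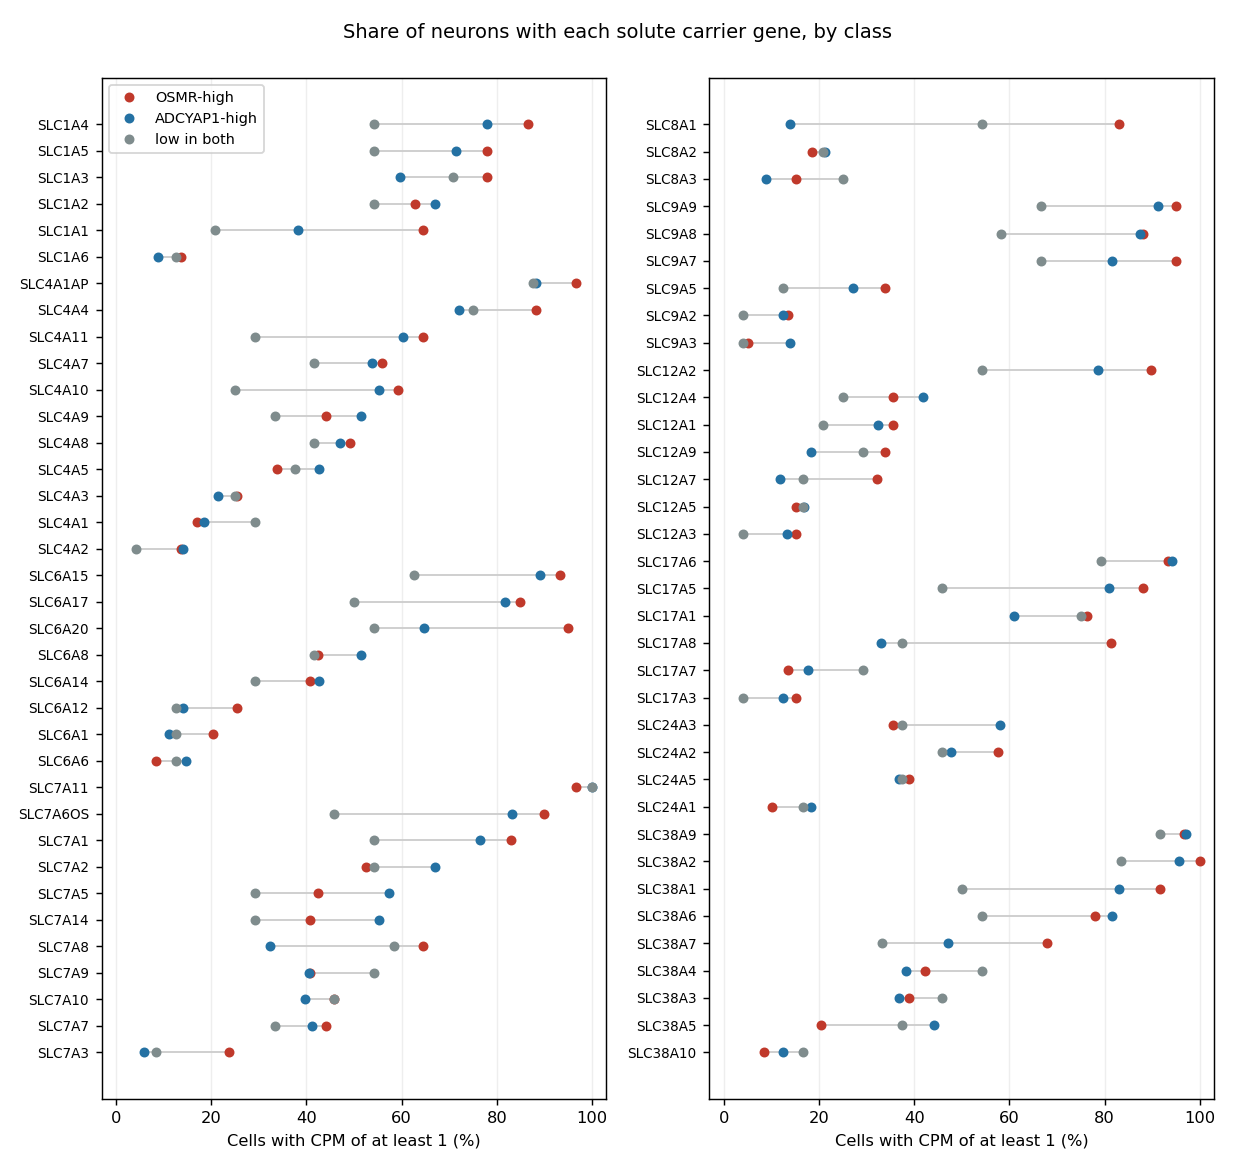
Share of neurons (percent, horizontal axis) with a CPM of at least 1 for described genes, ordered by family, in OSMR-high (red), ADCYAP1-high (blue) and low-in-both neurons (grey). SLC8A1, SLC17A8 and SLC6A20 have red points far to the right of the blue ones, while those of SLC7A14 and SLC24A3 lie to the left; depth differed between cells, and values thinned to equal depth are in the text.

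OSMR-high neurons carried more SLC6A20, an importer of proline and related imino acids, and more SLC8A1, the plasma membrane sodium-calcium exchanger, than ADCYAP1-high neurons. For this comparison counts were summed over the neurons of each animal and class, giving 8 OSMR-high, 10 ADCYAP1-high and 6 low-in-both sums, and edgeR's quasi-likelihood test was run with a term for the animal, adjusting p-values over all 18946 genes by Benjamini-Hochberg. In such sums, fewer neurons carrying a gene and less RNA per neuron cannot be told apart. Of the 95 genes, 62 passed the filter on low counts. Only 2 of the 62 were called higher at an adjusted p under 0.05, where 0.771% of all tested genes were, and 0 were called lower, where 0.918% of all were (1.69% in either direction). The members counted 7 higher and 8 lower at an unadjusted p under 0.05, 24.2% against 9.22% of all genes. DESeq2 called 3 higher and 3 lower, and limma 3 higher and 1 lower, with their shares over all genes not given here. Over the 62 members the log2 fold changes had a median of -0.33, over all genes of -0.10. Below 0 were 43 of the 62 members and 10814 of all 18946 genes.

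SLC6A20 had 6.39, 6.81 and 6.96 log2 CPM as the lowest, median and highest of the 8 OSMR-high sums. In the 10 ADCYAP1-high sums the lowest, median and highest were 1.09, 2.41 and 3.71, and in the 6 low-in-both sums -0.67, 3.02 and 5.08. The OSMR-high sums thus spanned a narrow range that lay above every other sum. The log2 fold change to ADCYAP1-high neurons was 4.00 ± 0.49 (SE, adjusted p = 6.78e-05, edgeR), a 16-fold difference that was in the same direction in 8 of 8 animals with both classes.

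SLC8A1 had 4.03, 4.67 and 5.52 log2 CPM as the lowest, median and highest OSMR-high sums and -2.16, -0.49 and 3.10 in the ADCYAP1-high sums, 2 of which held no count. These groups did not overlap either. The log2 fold change was 4.92 ± 0.86 (SE, adjusted p = 0.00278, edgeR), higher in 8 of 8 animals. The other sodium-calcium exchangers SLC8A2 and SLC8A3 were found in 20.4% and 12.4% of neurons and did not pass the filter on low counts.

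Both genes followed the OSMR level from cell to cell. The median SLC6A20 level was 2.03 CPM in the 79 neurons with under 1 CPM of OSMR, 2.90 CPM in the 42 neurons with 1 to 10 CPM, 3.95 CPM in the 39 with 10 to 50 CPM, 44 CPM in the 22 with 50 to 200 CPM and 111.04 CPM in the 44 above. SLC8A1 reached 1 CPM in 7.59%, 21.4%, 43.6%, 59.1% and 88.6% of the same neurons. The SLC8A1 median was 0 in the ranges under 50 CPM of OSMR, 2.87 CPM at 50 to 200 CPM and 21.9 CPM above. Both medians thus stepped up near the cut. The share of neurons with at least 1 CPM climbed through all 5 ranges for SLC6A20 as well as for SLC8A1. Within animals, the mean Spearman correlation with OSMR across cells was 0.54 for SLC6A20 and 0.57 for SLC8A1 (9 animals, 220 neurons, as a description of cells that share an animal and differ in depth). The neurons low in both were 54.2% positive for each of the 2 genes.

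**Figure D2:**
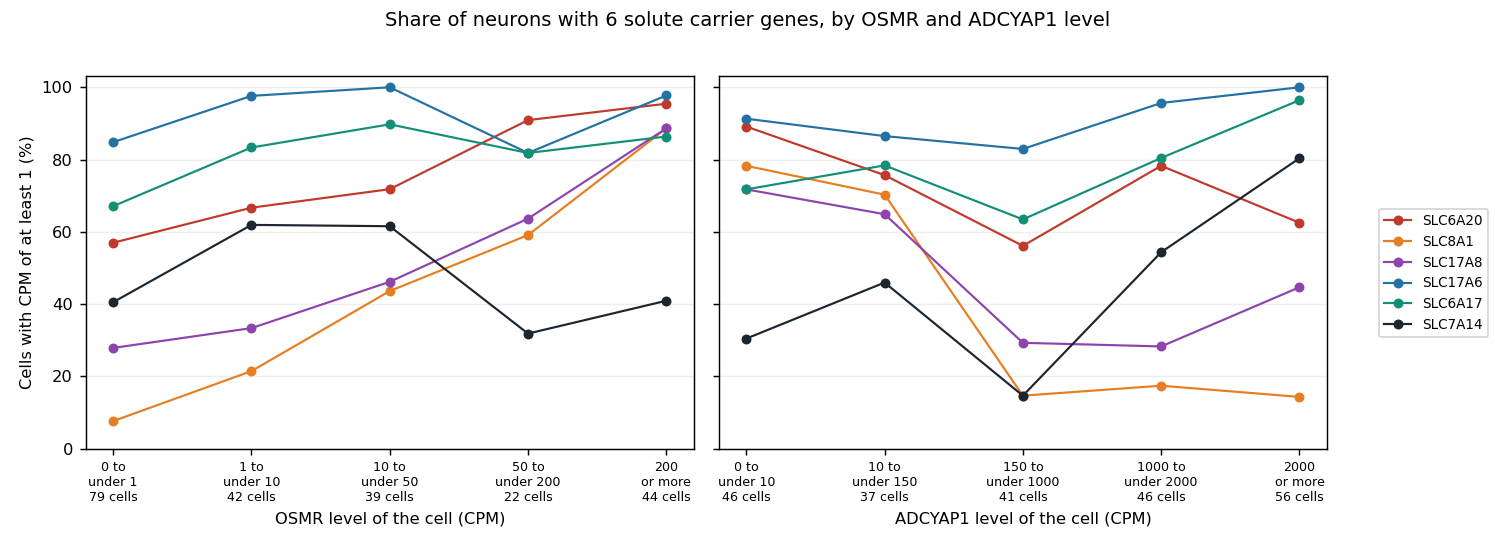
Share of neurons (percent, vertical axis) with a CPM of at least 1 for 6 genes, in ranges of the OSMR level (left) and the ADCYAP1 level (right) of the cell, with the number of cells under each range. SLC8A1 climbs from 7.59% to 88.6% along OSMR and SLC7A14 from 30.4% to 80.4% along ADCYAP1, though not in every step.

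Shares depend on depth, so each neuron was also thinned to 100000 reads, which left out 0 neurons. A gene then counted as found with any read left, a stricter line than the CPM of at least 1 used before thinning. Shares before and after thinning therefore differ in both depth and line. SLC6A20 was then found in 91.5% of OSMR-high and 33.8% of ADCYAP1-high neurons (94.9% and 64.7% before), SLC8A1 in 69.5% and 6.62% (83.1% and 14.0% before) and SLC17A8 in 66.1% and 16.2% (81.4% and 33.1% before). Over the 74 genes the order of the 2 classes was the same before and after thinning for 54, so for the other genes no order is read from their shares.

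**Figure D3:**
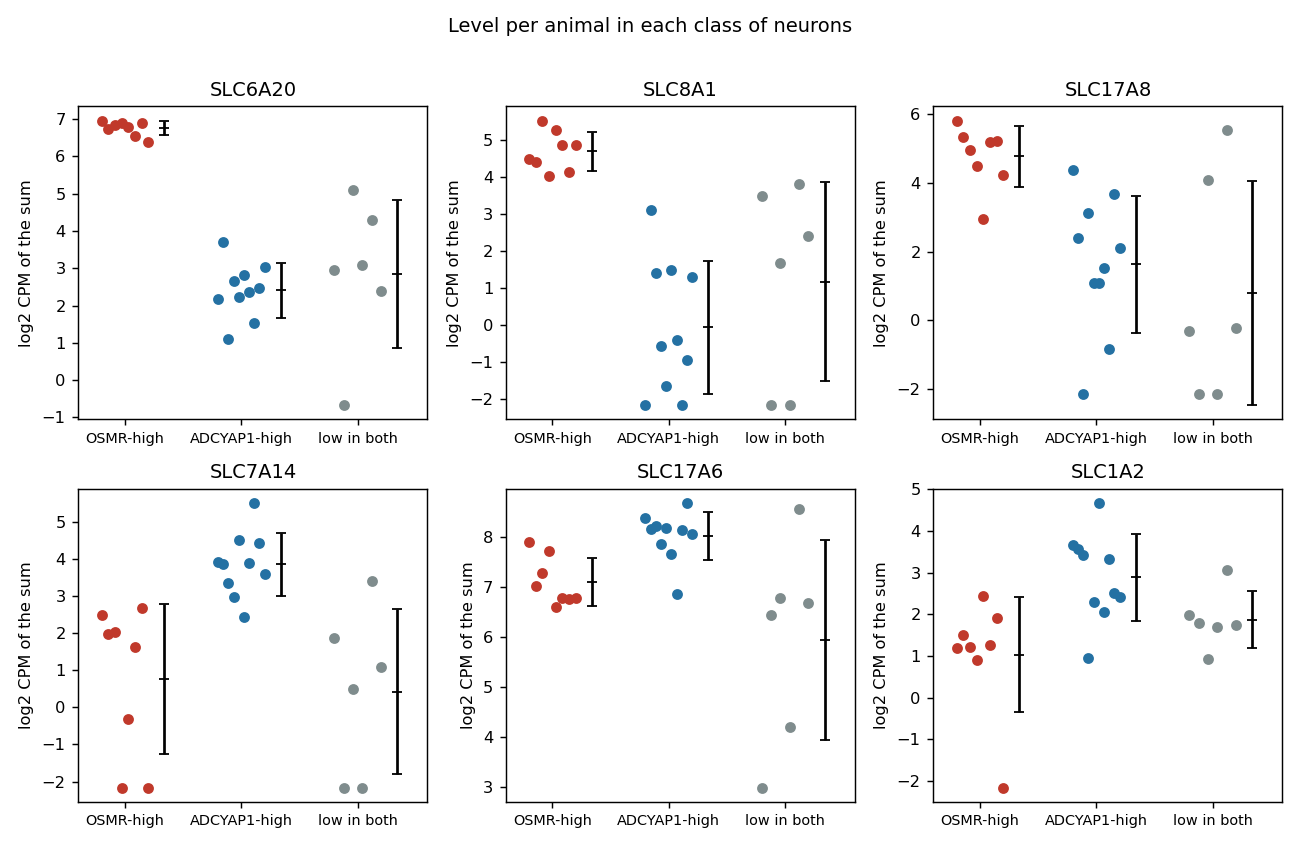
Level (log2 CPM, vertical axis) of 6 genes in the sum of each animal and class; each point is 1 animal's sum, and the bars are the mean and SD over sums. OSMR-high sums of SLC6A20 and SLC8A1 lie above all ADCYAP1-high sums, while the groups overlap for the other 4 genes.

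No vesicular glutamate carrier was called in the fit with 3 classes (0 of 5 tested SLC17A genes, edgeR, with SLC17A8 alone at an unadjusted p under 0.05). SLC17A8 (VGLUT3) had 2.95, 5.08 and 5.81 log2 CPM as the lowest, median and highest OSMR-high sums and -2.16, 1.81 and 4.38 in ADCYAP1-high sums. It was higher in 8 of 8 animals, with a log2 fold change of 2.40 ± 0.66, but missed the threshold (adjusted p = 0.0781, edgeR). SLC17A6 (VGLUT2) was found in 93.2% of OSMR-high and 94.1% of ADCYAP1-high neurons. Its level was 6.60, 6.90 and 7.90 log2 CPM in OSMR-high sums against 6.87, 8.15 and 8.67 in ADCYAP1-high sums, lower in 8 of 8 animals by -0.91 ± 0.49 on the log2 scale (adjusted p = 0.639, edgeR). SLC17A7 (VGLUT1) was found in 18.1% of neurons, and its log2 fold change was -1.24 ± 1.08 (adjusted p = 0.887, edgeR). Of the other SLC17A genes, the lysosomal sialic acid exporter SLC17A5 was at -0.56 ± 0.57 (adjusted p = 0.918, edgeR).

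When only the sums of these 2 classes entered the fit, an alternative chosen after the data were seen, more was called: 6 of 54 genes were higher, against 4.03% of all genes, and 8 were lower, against 4.97%. The higher genes were SLC6A20 (log2 fold change 4.16), SLC8A1 (5.04), SLC17A8 (2.44 ± 0.32, adjusted p = 8.89e-05, edgeR), the light chain SLC7A8 of a neutral amino acid exchanger (1.71), the Golgi exchanger SLC9A7 (1.08) and SLC12A2 (1.05). The lower genes were SLC7A14, a lysosomal relative of the cationic amino acid carriers (-2.26 ± 0.48, adjusted p = 0.00627, edgeR), the potassium-dependent sodium-calcium exchanger SLC24A3 (-2.22), SLC12A4 (-1.56), the glutamate carrier SLC1A2 (-1.46), the vesicular amino acid carrier SLC6A17 (-1.30), SLC7A5 (-1.25), the amino acid carrier SLC38A6 (-1.12) and SLC17A6 (-0.82). All 14 kept the sign of the fit with 3 classes, which holds the same sums, so the shared sign is no separate support. Both fits call SLC6A20 and SLC8A1, and the other 12 are called only here.

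SLC7A14 went with ADCYAP1. Its lowest, median and highest sums were 2.44, 3.88 and 5.50 log2 CPM in ADCYAP1-high and -2.16, 1.80 and 2.68 in OSMR-high neurons, with 2 OSMR-high sums at no count. It was lower in OSMR-high neurons in 8 of 8 animals, and in the fit with 3 classes the log2 fold change was -2.61 ± 0.70 (adjusted p = 0.0649, edgeR). Along ADCYAP1 it reached 1 CPM in 30.4% of the 46 neurons under 10 CPM, 45.9% of the 37 with 10 to 150 CPM, 14.6% of the 41 with 150 to 1000 CPM, 54.3% of the 46 with 1000 to 2000 CPM and 80.4% of the 56 above. The share was thus lowest in the neurons just over the ADCYAP1 cut and highest in those with the most ADCYAP1. This pattern was not particular to SLC7A14, since SLC17A6, SLC12A2 and SLC6A17 had their lowest and highest shares in the same ranges. SLC1A2, SLC6A20, SLC8A1 and SLC17A8 had their highest share in other ranges. These shares were not thinned to equal depth, and the part of depth in the pattern was not tested. The mean correlation with ADCYAP1 within animals was 0.45 for SLC7A14, 0.45 for SLC6A17 and 0.45 for SLC17A6 over all neurons (9 animals, 220 neurons). Within the ADCYAP1-high neurons alone (10 animals) it was highest for the glutamine importer SLC38A1 (0.56) and the neutral amino acid exchanger SLC1A5 (0.53).

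**Figure D4:**
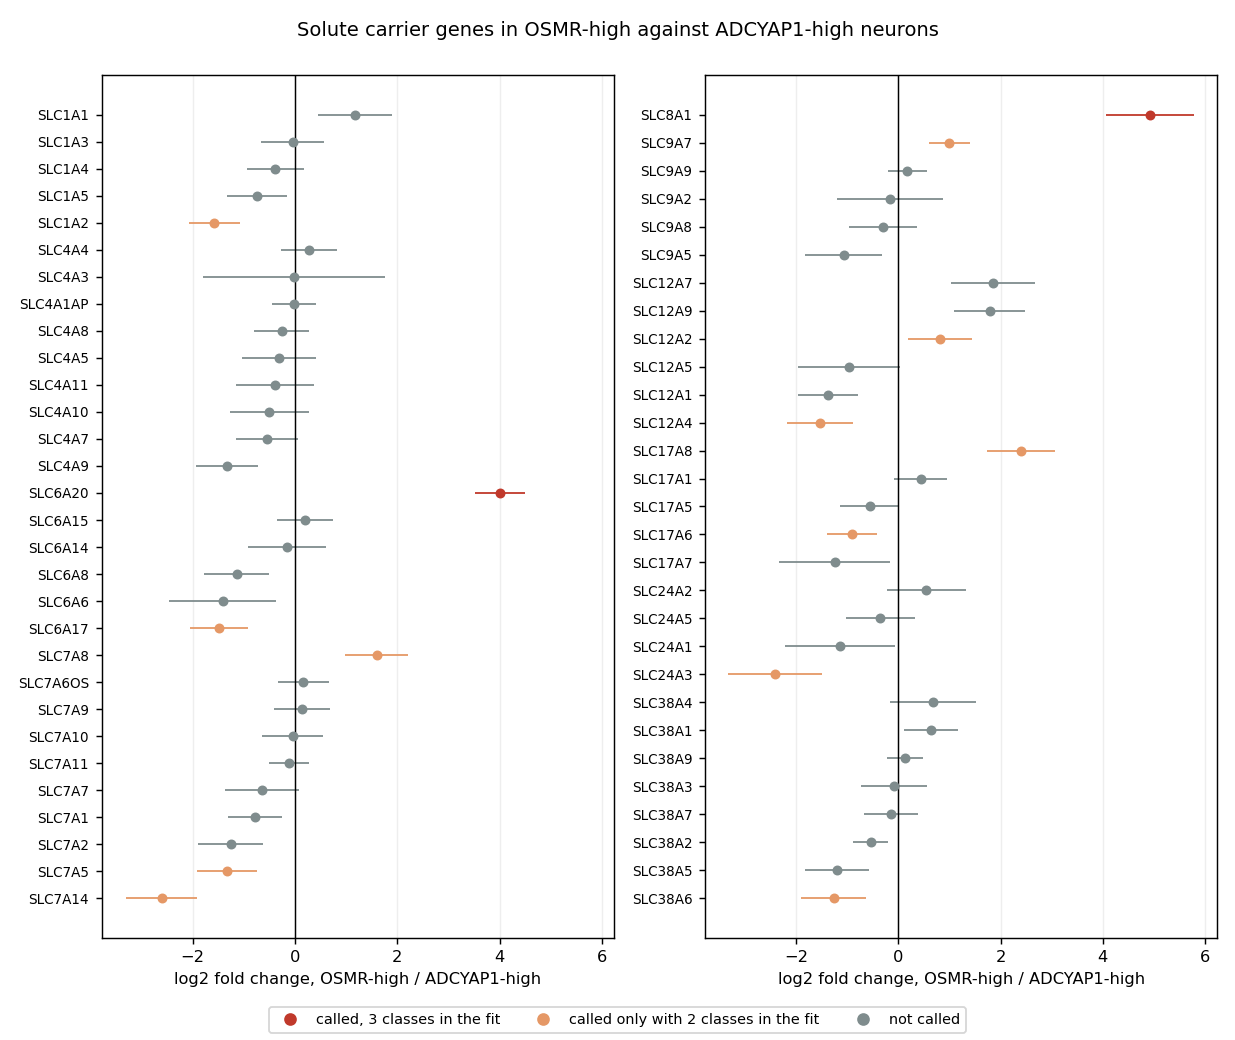
Log2 fold change (horizontal axis, bars are 1 SE) of OSMR-high against ADCYAP1-high neurons for tested genes, from the fit with 3 classes; red points passed an adjusted p of 0.05 there, and orange points only when the 2 classes were fitted alone. SLC6A20 and SLC8A1 stand at 4.00 and 4.92, and most other genes lie within 2 of 0.

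The chloride cotransporters showed no called difference in the fit with 3 classes. SLC12A2, the importer, was found in 89.8% of OSMR-high and 78.7% of ADCYAP1-high neurons and was higher in OSMR-high neurons in 7 of 8 animals (log2 fold change 0.81 ± 0.63, adjusted p = 0.853, edgeR). SLC12A5 (KCC2), the exporter best known from central neurons, was found in 16.4% of neurons, with 4 of 8 OSMR-high and 2 of 10 ADCYAP1-high sums at no count. SLC12A7 (KCC4), also sparse at 17.7%, was at 1.86 ± 0.82 (unadjusted p = 0.0346, adjusted p = 0.475, edgeR), and SLC12A4 (KCC1) at -1.53 ± 0.64 (adjusted p = 0.427, edgeR).

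Of the 9 genes tested with an SLC4A symbol, the non-carrier SLC4A1AP among them, 8 were below 0 and 0 were called, with 1 at an unadjusted p under 0.05 (SLC4A9, -1.32 ± 0.61). The electrogenic sodium-bicarbonate carrier SLC4A4, found in 77% of neurons, was at 0.27 ± 0.55. The related sodium-dependent carriers SLC4A7, SLC4A8 and SLC4A10 were found in 54.4%, 47.3% and 53.5% of neurons, and their log2 fold changes ran from -0.55 to -0.26. SLC4A3, an anion exchanger of excitable cells, was found in 22.6% and stood at -0.02 ± 1.78. With the 2 classes alone it was at 0.10 ± 0.77, so no direction is read for it.

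The sodium-proton exchangers SLC9A9, SLC9A8 and SLC9A7, which act in endosomes and the Golgi, were found in 84.1% to 89.8% of neurons. SLC9A7 had 5.42, 5.93 and 6.62 log2 CPM as the lowest, median and highest OSMR-high sums against 4.25, 4.95 and 5.43 in ADCYAP1-high sums, so that the ranges met only at their ends. It was higher in 8 of 8 animals (1.00 ± 0.40, adjusted p = 0.380, edgeR). SLC24A3 was lower in OSMR-high neurons in 7 of 8 animals (-2.41 ± 0.91, adjusted p = 0.310, edgeR), and its relative SLC24A2 was at 0.55 ± 0.77.

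Of the glutamate carriers, SLC1A2 had -2.16, 1.25 and 2.43 log2 CPM as the lowest, median and highest OSMR-high sums against 0.95, 2.92 and 4.67 in ADCYAP1-high sums (-1.58 ± 0.50, adjusted p = 0.149, edgeR). SLC1A1, the neuronal carrier, was found in 64.4% of OSMR-high and 38.2% of ADCYAP1-high neurons (1.17 ± 0.72, adjusted p = 0.731, edgeR). SLC1A3, the carrier known from satellite glia, was at -0.05 ± 0.62. The neutral amino acid exchangers SLC1A4 and SLC1A5 were at -0.38 ± 0.56 and -0.74 ± 0.58. For the plasma membrane amino acid carriers SLC7A5 (-1.32 ± 0.59) and SLC7A8 (1.60 ± 0.62), light chains of the same kind of exchanger, the signs were opposite, and neither passed in the fit with 3 classes (adjusted p = 0.478 and 0.343, edgeR). SLC7A11, SLC38A1, SLC38A2 and SLC6A15 stood at -0.11, 0.63, -0.54 and 0.20, and the creatine carrier SLC6A8 and the taurine carrier SLC6A6 at -1.14 ± 0.63 and -1.41 ± 1.04.

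Genes that work with these carriers, on 4 lists, were counted in the same fit. Among chloride and bicarbonate partners 1 of 18 tested was higher, the GABA-A receptor subunit GABRA5 (4.04 ± 0.87, adjusted p = 0.0143, edgeR), and 0 lower. Among sodium, proton and calcium partners 0 of 10 were higher and 1 lower, the sodium pump subunit ATP1B1 (-1.53 ± 0.35, adjusted p = 0.0202, edgeR). Of 13 genes of glutamate release and the glutamine cycle 0 were called, with 3 at an unadjusted p under 0.05, where 9.22% of all genes were. Of 10 genes of the amino acid response and transporter heavy chains 1 was lower, CHAC1, a glutathione-degrading enzyme of the stress response (-3.15 ± 0.61, adjusted p = 0.00614, edgeR).

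Markers of other cell types were detected in every class. The summed level of the Schwann cell markers ran from 1006 to 1635 CPM in OSMR-high sums and from 471 to 1045 CPM in ADCYAP1-high sums, and that of the satellite glia markers from 29.9 to 663 and from 62.5 to 673 CPM. Macrophage markers ran from 14.9 to 730 and from 15.5 to 303 CPM. Among these lists CX3CR1 alone was at 0, in the OSMR-high sums. Over the 5 tested Schwann cell markers the median log2 fold change was 0.099, with 3 above 0 and 2 below. The part of the Schwann cell markers in the class differences was not tested. Of the tested markers, 0 of 5 Schwann, 0 of 5 satellite glia, 0 of 7 macrophage and 0 of 4 endothelial genes were called, and 1 of 5 fibroblast genes, DCN, was higher in OSMR-high neurons. In the fit of the 2 classes alone, the Schwann cell marker PMP22 (log2 fold change 1.19, adjusted p = 1.74e-05, edgeR), the endothelial marker PECAM1 (1.45, adjusted p = 0.0260, edgeR) and DCN (5.21, adjusted p = 4.22e-05, edgeR) were higher in OSMR-high neurons. When the 57 neurons highest in markers of other cell types were left out, SLC6A20 was still called (4.05, adjusted p = 0.0250, edgeR) and SLC8A1 was not (log2 fold change 5.21, adjusted p = 0.148, edgeR). With the 2 classes alone and those neurons left out, both were called and none of the other 12 was. Across all neurons, the members that went most with the satellite glia markers were SLC6A8 (mean correlation 0.40), SLC12A4 (0.35) and SLC1A3 (0.34).

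Against the 6 sums of neurons low in both, which share the other sums of the same fit, the values of the classes stood side by side as follows. SLC6A20 was higher in OSMR-high neurons by 3.29 ± 0.56 (adjusted p = 0.00451, edgeR, 5 of 5 animals), 1 of 62 genes called higher where 1.42% of all genes were, and 0 were lower where 0.269% of all were (1.69% in either direction). DESeq2 called 9 members and limma 11, for which no share over all genes is given. Of the markers of other cell types, PMP22 of Schwann cells (2.15 ± 0.46, adjusted p = 0.0208, edgeR, 1 of 5) and DCN of fibroblasts (5.83 ± 1.06, adjusted p = 0.00738, edgeR, 1 of 5) were higher in the same comparison. An unadjusted p under 0.05 was reached by 3 of 4 endothelial markers and by 18.0% of all genes. The Schwann cell markers summed to 35.2 to 854 CPM in the sums low in both, all below the OSMR-high sums, and the endothelial markers to 0 to 13.7 CPM against 5.12 to 71.2 CPM in OSMR-high sums. SLC8A1 was at 3.35 ± 0.93 there (adjusted p = 0.0711, edgeR), with no overlap between the sums. In ADCYAP1-high neurons 0 of 62 genes were called against those low in both, where 2.51% of all genes were higher and 0.380% lower (2.89% in either direction). The members counted 13 higher and 3 lower at an unadjusted p under 0.05, 25.8% against 21.4% of all genes. DESeq2 and limma each called 12 members, again with no share over all genes given. Nearest to the threshold were SLC17A5 (2.61 ± 0.72, adjusted p = 0.0506, edgeR), SLC7A5 (2.47 ± 0.72, adjusted p = 0.0638, edgeR), SLC7A14 (2.75 ± 0.81, adjusted p = 0.0660, edgeR) and the cationic amino acid carrier SLC7A2 (2.32 ± 0.72, adjusted p = 0.0785, edgeR), each higher in 6 of 6 animals. Of the 10 tested partner genes of the amino acid response, 3 were higher in ADCYAP1-high neurons and 0 lower: CHAC1 (3.94 ± 0.73), the nutrient sensor SESN2 (3.59 ± 0.78) and the stress response factor DDIT3 (1.92 ± 0.47), in 6 of 6 animals each. Of the other partner lists, 1 of 10 sodium, proton and calcium genes, the plasma membrane calcium pump ATP2B4 (1.80 ± 0.46, adjusted p = 0.0376, edgeR), and 1 of 13 genes of glutamate release, the synaptic vesicle protein SYN3 (3.54 ± 0.96, adjusted p = 0.0470, edgeR), were higher, and 0 of 18 chloride and bicarbonate genes were called. CLTRN, a partner of amino acid carriers, was the 1 partner gene higher in OSMR-high neurons than in those low in both (3.34 ± 0.79, adjusted p = 0.0323, edgeR). The low-in-both sums held as few as 2 neurons and scattered widely, with a range of 2.99 to 8.55 log2 CPM for SLC17A6.

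The SLC6A20 call over neurons low in both was lost in neurons of day 1 alone (4.66, adjusted p = 0.0900, edgeR) and without the neurons highest in markers of other cell types (2.86, adjusted p = 0.245, edgeR).

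No difference between days in culture was called in these genes. Sums per animal and day (9 at day 1, 8 at day 2, 3 at day 3) were fitted together, and 67 of the 95 genes were tested. At day 2 against day 1, 0 were called, and 0% of all 20267 genes were. At an unadjusted p under 0.05 there was 1 of 67, against 3.73% of all genes: SLC1A4 (-1.02 ± 0.40, lower in 6 of 7 animals). DESeq2 and limma called 0 members. At day 3, 0 were called, where 0.00493% of all genes were higher. At an unadjusted p under 0.05 there were 2 of 67, against 12.7% of all genes: SLC38A9 and SLC6A14, a broad amino acid importer (-2.63 ± 1.10). DESeq2 called SLC38A9 alone, and limma 0 members. SLC38A9 had 5.83, 6.27 and 7.22 log2 CPM in the 3 sums of day 3, and 5.08, 5.64 and 6.06 as the lowest, median and highest at day 1. All 3 animals were higher at day 3 than at day 1 (1.15 ± 0.35, adjusted p = 0.250, edgeR), with the groups overlapping.

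SLC6A20 was at 0.22 ± 0.32 at day 2 and -0.92 ± 0.48 at day 3 on the log2 scale, SLC17A6 at -0.43 ± 0.26 and -0.39 ± 0.36, and SLC12A2 at 0.12 ± 0.28 and 0.14 ± 0.38. The make-up of the sums moved with the days. OSMR-high neurons were 24.2%, 26.9% and 33.3% of neurons at days 1, 2 and 3, ADCYAP1-high neurons 64.5%, 57.7% and 45.8%, and those low in both 8.87%, 10.3% and 20.8%; their part in these values was not tested. Within ADCYAP1-high neurons, where class is held, 0 of 43 genes were called at day 2 against day 1, and 0% of 14958 genes. At an unadjusted p under 0.05 there were also 0 members, against 4.37% of all genes, and DESeq2 called 0 members.

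Larger neurons carried more SLC12A2 and SLC6A20 than smaller ones of the same animal. Neurons above and below the median of the diameter column, which states no unit, were summed per animal (10 animals), and 53 of the 95 genes were tested. At an adjusted p under 0.05, 2 were higher in larger neurons, where 0.505% of all genes were, and 0 lower, where 0.0353% were (0.541% in either direction). At an unadjusted p under 0.05 the members counted 7 higher and 3 lower, 18.9% against 12.0% of all genes. DESeq2 called 3 members higher and 0 lower, with no share over all genes given. SLC12A2 had 4.92, 5.79 and 6.40 log2 CPM as the lowest, median and highest in larger neurons and 3.79, 4.68 and 6.11 in smaller ones, with a log2 fold change of 0.96 ± 0.20 (adjusted p = 0.0428, edgeR), higher in 9 of 10 animals. SLC6A20 had 4.24, 5.26 and 6.57 against 0.81, 3.08 and 5.84, with a log2 fold change of 2.16 ± 0.46 (adjusted p = 0.0466, edgeR), also in 9 of 10 animals. SLC8A1 was at 2.09 ± 0.48 (adjusted p = 0.0608, edgeR). The larger and smaller sums overlapped for all 3 genes. The Schwann cell markers summed to 686 to 1331 CPM in larger and 284 to 903 CPM in smaller neurons, and 1 of their 5 tested genes, PMP22, was higher in larger neurons (0.85 ± 0.15, adjusted p = 0.0207, edgeR).

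**Figure D5:**
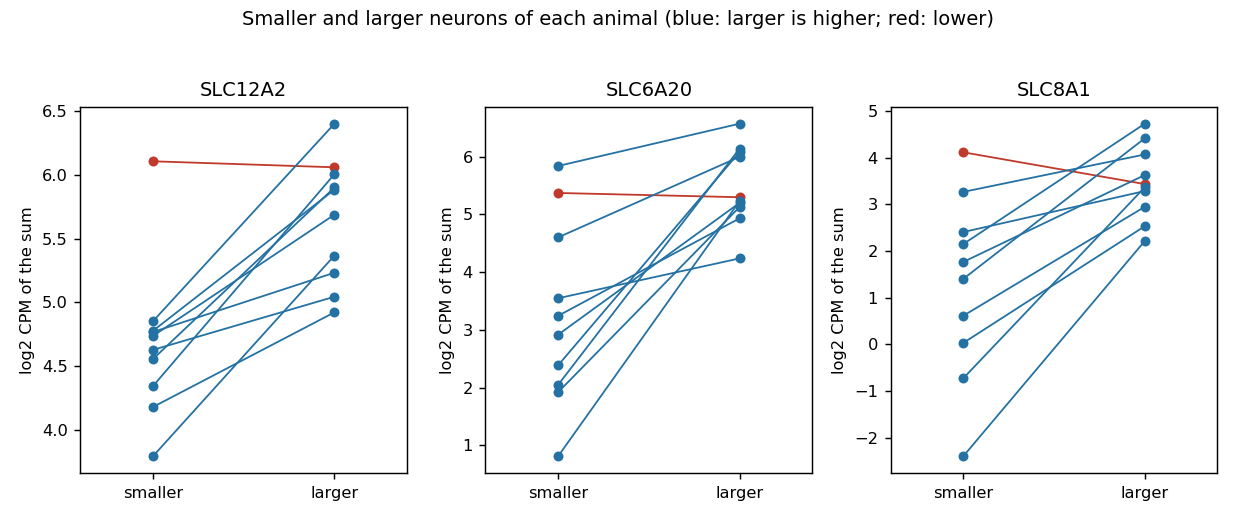
Level (log2 CPM, vertical axis) of 3 genes in the smaller and larger neurons of each animal; each line joins the 2 sums of 1 animal. In 9 of 10 animals the larger neurons are higher for each gene, and the 1 line that falls is red.

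Class and size went together. OSMR-high neurons had a mean diameter of 42.5 ± 2.53 (SD over 8 animals) and ADCYAP1-high neurons of 35.1 ± 1.89 (SD over 10 animals), larger in 8 of 8 animals with both (exact sign-flip permutation test, two-sided, p = 0.00781, the smallest it can give, and 0.0703 adjusted over 9 tests). Capacitance was 111.4 ± 17.5 and 61.4 ± 14.1 (exact permutation p = 0.0156, adjusted 0.0703). Of the 6 markers of OSMR neurons, 4 were likewise higher in larger neurons: OSMR (3.03), IL31RA (2.93), CYSLTR2 (2.99) and JAK1 (1.52). Among neurons with OSMR under 50 CPM, larger against smaller gave 0.07 for SLC6A20 (adjusted p = 0.994, edgeR) and 0.53 for SLC12A2 (adjusted p = 0.994, edgeR). Within ADCYAP1-high neurons 0 of 44 genes were called, and 0% of 14014 genes (DESeq2 called 0 members). There SLC12A2 was at 0.60 ± 0.30 and higher in 8 of 10 animals, and SLC6A20 was at -0.27 ± 0.40. An unadjusted p under 0.05 was reached by 3 members, 6.82% against 5.60% of all genes. They were SLC17A8 (-2.47 ± 0.76, lower in 9 of 10 animals), SLC4A10 (1.65 ± 0.64) and SLC7A1 (-0.75 ± 0.34).

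The SLC12A2 and SLC6A20 calls for size were also lost without the animal block (0.90 and 1.56), without the neurons highest in markers of other cell types (0.37 and 1.08), with limma on mean log2 values (1.15 and 1.10), and when neurons of middle diameter were left out (1.03 and 2.88). With capacitance in place of diameter SLC6A20 was called (2.78, adjusted p = 0.000685, edgeR) and SLC12A2 was not (0.75, adjusted p = 0.203, edgeR).

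No difference by resting membrane potential was called. Neurons with a potential above the median of their animal (depolarised) were compared with those below it (10 animals, 51 genes tested). Of these 0 were called, and 0% of all 16661 genes were. At an unadjusted p under 0.05 there were 2, 3.92% against 3.87% of all genes. They were the endosomal exchanger SLC9A9 (-0.50 ± 0.20, lower in depolarised neurons in 8 of 10 animals) and SLC17A8 (-1.39 ± 0.56, also 8 of 10). DESeq2 and limma called 0 members. Within ADCYAP1-high neurons 0 of 39 genes were called, and 0% of 13098 genes (DESeq2 called 0 members). SLC9A9 was again lower there (-0.70 ± 0.25, 7 of 9 animals, unadjusted p = 0.0156) and did not pass adjustment (adjusted p = 0.998, edgeR). SLC12A2 was at -0.29 ± 0.37 over all neurons. The mean potential was -59.5 ± 4.85 in OSMR-high and -56.2 ± 1.74 in ADCYAP1-high neurons, in the unit of the cell table, which is not stated (exact permutation p = 0.0781, adjusted 0.176).

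Across single neurons, the mean Spearman correlations within animals of the 74 genes ran from -0.21 to 0.20 with resting potential, from -0.23 to 0.27 with diameter and from -0.18 to 0.35 with capacitance. The highest with capacitance were SLC8A1 (0.35), SLC6A20 (0.33), SLC7A8 (0.29) and SLC12A2 (0.28), and with diameter SLC1A1 (0.27) and SLC12A2 (0.23). These coefficients are descriptions of cells that share an animal and differ in class and depth.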

How the data were processed

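The deposited gene table holds the authors' estimated counts per neuron. What counting tool, genome build and annotation were used is not given in the sources used here. Genes are therefore described without coordinates. Of its values above 0, 52.1% were not whole, counting any fractional part at all. The submitters' processing notes name bcl2fastq 2.20. The deposited cell table gave the animal, diameter, capacitance and resting potential, with no units stated; 43 of its 269 lines belong to no sample used here. Symbols were paired with 14867 of 30420 identifiers through a table of gene names. The Smart-Seq2 libraries hold neither molecular identifiers nor strand information.

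Counts were summed over neurons per animal and group (at least 2 neurons per class sum and 3 per day, size or potential sum, 2 within ADCYAP1-high neurons), rounded, and tested with edgeR 4.0.16 (R 4.3.3; TMM, filterByExpr, quasi-likelihood test, animal block, threshold 0.05). The animal pairs the sums, because the cell table names the animal of each neuron. Levels are log2 CPM with a prior count of 2. The SE of an edgeR log2 fold change is its absolute value over the square root of the F statistic, which is unstable near 0. Alternatives used DESeq2 1.42.0 and limma 3.58.1 (log2 of CPM plus 1). For all alternatives except the fit of the 2 classes alone, the share of all genes called is not given here. All 226 neurons had at least 1000 genes. Fits of the class, size and day sums were also run on simulated counts with a fixed spread and no animal effect. These settings differ from the real sums, so no call here rests on that run. Named genes were 35 carriers named whatever their result, plus up to 15 called members per comparison with the largest change; others named here were chosen after their values were seen. The members, lists, cuts and tests were chosen with earlier results of these data known. Animals are separate pigs, and neurons of 1 pig are not replicates. Some members enter the counts given here but are not reported by name or plotted.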

Additional observations from a re-analysis of the deposited data

Results flagged for a closer look

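Among 27 sets of sums checked for a single value far from the rest, 2 were marked, and chance alone marks about 1 set in 20. The OSMR-high sum of animal 10 held 0 counts of SLC1A2 (-2.16 log2 CPM), where the other 7 sums ran from 0.90 to 2.43. The smaller neurons of animal 1 had 6.11 log2 CPM of SLC12A2, where the other 9 sums ran from 3.79 to 4.85. Animal 1 is also the animal in which larger neurons did not have the higher SLC12A2 level. The same held for SLC8A1, with 3.44 log2 CPM in its larger and 4.12 in its smaller neurons. Without animal 1, an alternative chosen after seeing the data, larger against smaller neurons gave 1.07 for SLC12A2 (adjusted p = 0.0214, edgeR), 2.36 for SLC6A20 (adjusted p = 0.0352, edgeR) and 2.41 for SLC8A1 (adjusted p = 0.0197, edgeR), so that 3 members were called. This removes the only animal going the other way for SLC12A2 and SLC8A1, so their larger values there add no support. The share of all genes called without it is not given here.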

How the results depend on the processing

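For OSMR-high against ADCYAP1-high neurons, the 2 called members became 6 with DESeq2, 5 with cuts of 100 and 500 CPM, 4 with limma on mean log2 values, 4 without a filter on low counts, 1 without the neurons highest in markers of other cell types and 14 with sums of the 2 classes only. Leaving out each animal in turn gave 2 to 4, with 4 without animal 3, where SLC17A8 (2.41, adjusted p = 0.0474, edgeR) and SLC7A14 (-2.43, adjusted p = 0.0470, edgeR) were also called. SLC6A20 kept its call in all 22 alternatives run for it in this comparison. For OSMR-high neurons against those low in both, the 1 call became 9 with DESeq2, 7 with cuts of 100 and 500 CPM, 0 on day 1 only, 11 with limma, 2 with at least 3 cells a sum, 4 without the replicate block, 2 without the filter and 0 without the neurons highest in other markers. For ADCYAP1-high neurons against those low in both, 0 calls became 12 with DESeq2, 1 with size factors in place of TMM, 6 with cuts of 100 and 500 CPM, 2 with cuts of 20 and 50 CPM, 12 with limma, 2 with at least 3 cells a sum, 6 without the replicate block and 3 without the filter. At day 3 against day 1, DESeq2 gave 1 and leaving out each animal 0 to 0. For larger against smaller neurons, limma made 1 call, of another gene, SLC1A1 (higher, adjusted p = 0.0312, limma), in place of the 2, and 0 were called without the replicate block, without the neurons highest in other markers, with OSMR under 50 CPM only and without neurons of middle diameter. The sign turned for SLC7A8 (0.22 on day 1 only) and SLC12A1 (-0.20 with cuts of 100 and 500 CPM, -1.07 on day 1 only) in ADCYAP1-high neurons against those low in both, and for SLC7A9 with capacitance (0.0704). The cause of these shifts was not tested. Shares of all genes called are given only for the main fits and the fit of the 2 classes alone. Whether the counts of members in the other alternatives exceed the general rate cannot be read here. Leaving out any 1 animal did not take a call from SLC6A20 or SLC8A1 in OSMR-high against ADCYAP1-high neurons. Calls against neurons low in both rest on 23 neurons in 6 sums, and day 3 on 3 animals.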
